A study of Mus musculus with 28 samples.

Results

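The small RNA libraries of neonatal mouse hearts were examined for the miRNAs carried in the introns of myosin heavy chain genes. The members were the 5 mature names mmu-miR-208a-3p, mmu-miR-208a-5p, mmu-miR-208b-3p, mmu-miR-208b-5p and mmu-miR-499-5p (written below without the species prefix), taken by name from 1485 mature names listed in the 28 libraries. Each member was listed under 1 hairpin. The libraries came from left ventricular wall of the remote zone, away from the ligated artery, in outbred mice of the Hsd:ICR(CD-1) stock. Mice were operated on postnatal day 1 (P1) or day 7 (P7) and kept for 3 or 21 days. For myocardial infarction (MI) the left anterior descending (LAD) coronary artery was tied off, and controls had a sham operation. The hearts were thus 4 days old (P1) and 10 days old (P7) at the 3-day follow-up, and 22 and 28 days old at the 21-day follow-up. There were 4 libraries in each of the 4 groups at 3 days and 3 libraries in each of the 4 groups at 21 days. The labels do not say that each library is a separate mouse, so a p-value here reflects only how far these samples spread, which may be technical. The follow-ups differ in library kit and sequencer, and their levels are not compared.

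Myosin heavy chain is the motor protein of the sarcomere. In the mouse ventricle the Myh7 product, beta myosin heavy chain, prevails before birth, and the Myh6 product, alpha myosin heavy chain, replaces it after birth. miR-208a lies within Myh6, miR-208b within Myh7 and miR-499 within Myh7b, a related myosin gene, and each is made from its host's transcript. In the adult mouse heart miR-208a is known to be needed for the rise of beta myosin under stress, and miR-499 is known to promote the differentiation of heart muscle cells. A hairpin yields a mature RNA from either arm, named 5p and 3p.

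The mature sequences are shown because the members fall into families by seed, the bases 2 to 8 that pair with targets, and because the 3-day split described below moved with base composition. They are RefSeq sequences on GRCm38.p6, read 5′ to 3′, with the seed in capitals.
miR-208a-3p: aUAAGACGagcaaaaagcuugu
miR-208b-3p: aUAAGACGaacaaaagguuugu
miR-499-5p: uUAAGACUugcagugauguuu
miR-208a-5p: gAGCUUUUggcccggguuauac
miR-208b-5p: aAGCUUUUugcucgcguuaugu
miR-499-3p: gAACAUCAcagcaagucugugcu
miR-208a-3p and miR-208b-3p share the seed UAAGACG, and miR-499-5p shares bases 2 to 7 of it, UAAGAC. Counted from the 5′ end of miR-208a-3p, miR-208b-3p differs by G10A, A16G and C18U and is identical at the other 19 positions. The 5p arms of miR-208a and miR-208b share the seed AGCUUUU. The share of G and C bases (GC) was 31.8% in miR-208b-3p, 33.3% in miR-499-5p, 36.4% in miR-208a-3p, 40.9% in miR-208b-5p and 54.5% in miR-208a-5p. The opposite arm miR-499-3p, which is no member, had 47.8%.

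All 3 hairpins are intronic and on the strand of their host, by the GENCODE annotation of GRCm38.p6. Mir208a lies at chr14:54949060-54949142 on the minus strand, in intron 29 of Myh6-201. Mir208b lies at chr14:54975700-54975776 on the minus strand, in intron 31 of Myh7-201. Mir499 lies at chr2:155622880-155622958 on the plus strand, in intron 19 of Myh7b-201. The Mir208a hairpin is shown with the 5p arm and then the 3p arm in capitals. The scaled levels of its arms differed in opposite directions between the title codes and between P7 and P1 at 3 days, though not for MI against sham.
Mir208a: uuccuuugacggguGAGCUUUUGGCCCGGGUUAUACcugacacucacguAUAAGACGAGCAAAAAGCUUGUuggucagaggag

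The deposited counts of a library summed to between 1.29 and 13.0 M in the 3-day follow-up and between 18.2 and 26.9 M in the 21-day follow-up. At 3 days the MI P1 libraries held 5.61 to 13.0 M and the MI P7 libraries 1.29 to 1.95 M, without overlap. The 5 members together held 0.404 to 1.26% of the counts of a library at 3 days and 0.586 to 1.11% at 21 days. Levels below are counts per M counts after TMM scaling (CPM), which brings libraries of different depth and make-up to a common scale. The 3-day sham P1 group held libraries of 2 kinds, which the titles mark with the codes 1078 (replicates 1 and 2) and 1103 (replicates 3 and 4). The kinds differed in depth too, with 6.25 and 9.26 M counts for code 1078 and 1.56 and 2.65 M for code 1103. The sham P7 libraries held 1.61 to 3.42 M. What the codes stand for is not given in the sources used here. Codes 1059 (replicate 1) and 1086 are found in MI P1, codes 1077, 1088 and 1090 in MI P7, and code 1075 alone in sham P7. No code is shared between groups, so code and group cannot be told apart except within a group. At 21 days each group has a code of its own. Some markers moved with the split: the endothelial miRNAs miR-126a-3p and miR-126a-5p summed to 120889 and 158425 CPM in the code 1078 libraries, and to 3912.5 and 6197 CPM in those of code 1103. Erythroid, fibroblast, smooth muscle and liver markers were also lower with code 1103. Leukocyte sums (miR-142a-3p, miR-142a-5p, miR-223-3p and miR-150-5p) overlapped, at 1618.5 and 2032 CPM against 1799 and 2166 CPM, as did skeletal muscle miR-206-3p. Striated muscle sums (miR-1a-3p, miR-133a-3p, miR-133a-5p and miR-133b-3p) were higher with code 1103, at 228232 and 255064 CPM against 153118.5 and 151106 CPM.

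The members differed between the libraries of the codes. miR-208a-3p was at 2841 and 1036 CPM in the code 1078 libraries and at 43.4 and 45.7 CPM in the code 1103 libraries. miR-208b-3p was at 4071 and 3560.5 CPM against 289 and 593 CPM. miR-499-5p was at 2678 and 2943.5 CPM against 173 and 275 CPM. The 5p arm of miR-208a went the other way, with 1510 and 1157.5 CPM against 4986 and 4149 CPM, although both arms are cut from 1 hairpin. In reads before scaling the 5p arm was at 6478 and 6166 against 5171 and 7717.

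Across miRNAs the split moved with base composition. Of 446 mature names tested at 3 days, 389 (87.2%) had a RefSeq sequence, and over these the log2 difference between code 1103 and code 1078 had a Pearson r of 0.735 with GC. The points share the same 4 libraries, and r is a description only. The median log2 difference was -3.43 over the 58 names under 40% GC, and 2.06 over the 69 names of 60% GC or more. On that scale, log2(CPM + 1), miR-208a-3p differed by -5.24, miR-499-5p by -3.68, miR-208b-3p by -3.20, miR-208b-5p by -1.89 and miR-208a-5p by 1.78. The part of base composition or of depth in any result below was not tested.

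**Figure D1:**
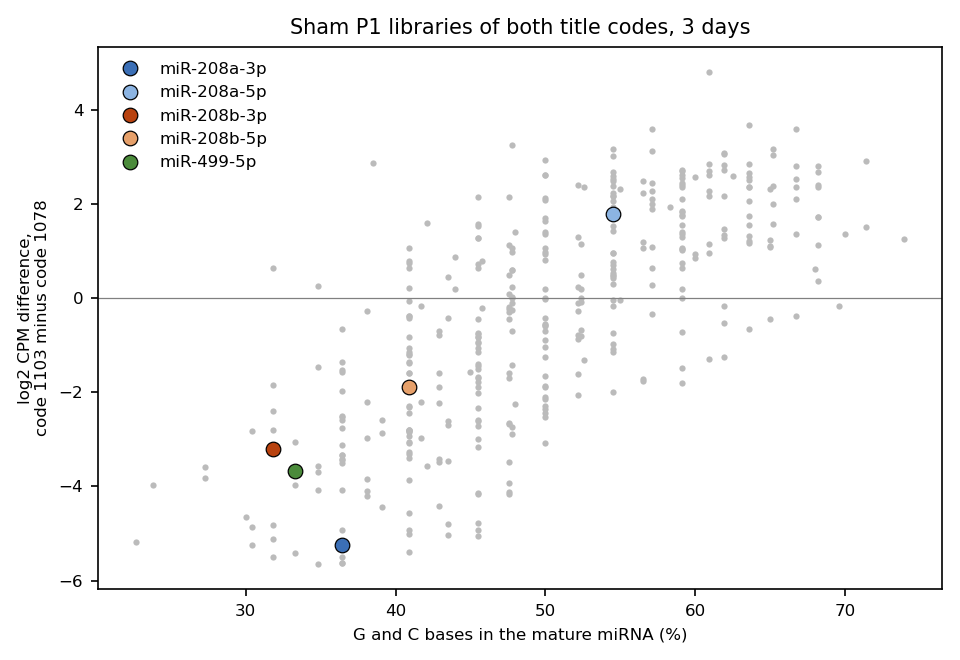
Difference of mean log2(CPM + 1) between the sham P1 libraries of title codes 1103 and 1078 at 3 days (vertical axis) against the GC share of the mature miRNA in percent (horizontal axis), for 389 tested names (grey) and the 5 members (coloured). The AU-rich members lie below 0, down to -5.24 for miR-208a-3p, and miR-208a-5p, the member with the highest GC share, lies above 0 at 1.78.

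The first question was whether the members differed between hearts with MI and sham hearts 3 days after an operation at P1. The 3p arms and miR-499-5p did not pass the test, and the 5p arm of miR-208a was lower after MI. miR-208a-5p was at 1510, 1157.5, 4986 and 4149 CPM in the sham P1 libraries and at 861, 597, 1461.5 and 867 CPM in the MI P1 libraries. The groups overlapped through sham P1 replicate 2, of code 1078, and the other 3 sham libraries lay above every MI library. The log2 difference was -1.64 ± 0.46 (SE; edgeR adjusted p = 0.0264). In reads before scaling it was at 5171 to 7717 in sham P1 and 4122 to 7185 in MI P1. In this comparison 18.4% of all 446 tested names were called, against 1 of the 5 members. That share is itself unsteady: 82 names were called, 0 with title code as a random effect, 164 and 162 without sham P1 replicate 1 or 2, 1 without replicate 3, and 0 when sham P1 replicate 4 was left out, as when any of replicates 1, 2 and 4 of MI P1 was. Without the code 1103 libraries miR-208a-5p had -0.59 (adjusted p = 0.592) and 0 members were called. Its call was also lost without any of sham P1 replicates 3 and 4 and MI P1 replicates 1, 2 and 4, where it had -1.29 to -1.72 (edgeR adjusted p of 0.0569 to 0.13).

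miR-208a-3p, cut from the Myh6 intron, was at 851 to 1013 CPM in the 4 MI P1 libraries, within the range of the sham P1 libraries, which ran from 43.4 to 2841 CPM. Its log2 difference was -0.09 ± 0.92 (adjusted p = 0.959). miR-208b-3p, from the Myh7 intron, was at 2023, 6147, 2689.5 and 2678 CPM after MI, and had 0.67 ± 0.68 (adjusted p = 0.53). miR-499-5p was at 1094, 2654, 1523 and 1262.5 CPM after MI, and had 0.11 ± 0.70 (adjusted p = 0.932). The call depends on which sham libraries stand as controls. Without the code 1078 libraries 4 members were called by edgeR, with 4.18 for miR-208a-3p, 2.74 for miR-208b-3p, 2.67 for miR-499-5p and -2.49 for miR-208a-5p.

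**Figure D2:**
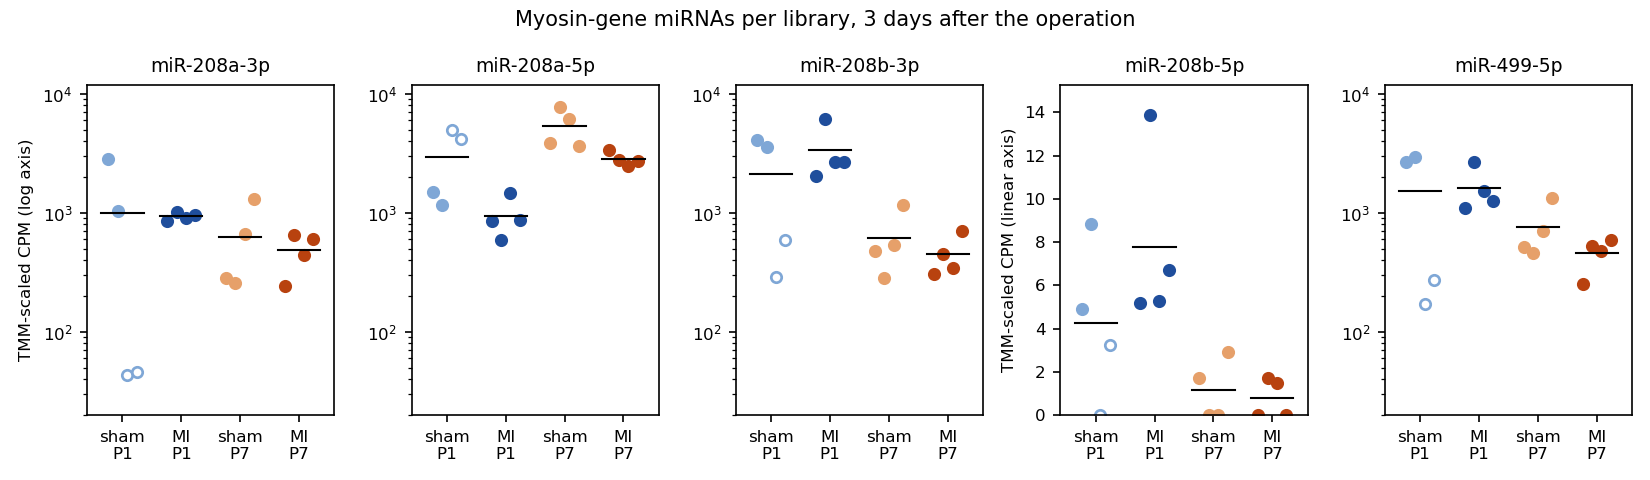
TMM-scaled CPM of the 5 members in each of the 16 libraries at 3 days (vertical axes; logarithmic, but linear from 0 for miR-208b-5p) by group (horizontal axis). Points are libraries, open points the sham P1 libraries of title code 1103, and bars the group means. miR-208b-3p lies at 2023 CPM or more in all 4 MI P1 libraries and at 1158 CPM or less in all 8 P7 libraries. In sham P1 it lies at 4071 and 3560.5 CPM in the code 1078 libraries. Those of code 1103, at 289 and 593 CPM, lie within the range of the P7 libraries.

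The same question for an operation at P7 gave no call. miR-208a-3p was at 281, 258, 668 and 1308 CPM in sham P7 and at 241, 655, 442 and 600.0 CPM in MI P7, with a log2 difference of -0.38 ± 0.92. miR-208b-3p was at 482, 282, 538 and 1158 CPM against 307, 450.0, 341 and 701 CPM, with -0.45 ± 0.68. miR-499-5p was at 519, 464, 700.0 and 1343 CPM against 252, 530.0, 476 and 597 CPM, with -0.71 ± 0.70. For each of these 3 the groups overlapped, and sham P7 replicate 4 was the highest of the 8 libraries. miR-208a-5p was lower after MI in every library, at 2496 to 3406 CPM against 3635 to 7747 CPM in sham, with -0.91 ± 0.45 (edgeR adjusted p = 0.277).

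In edgeR, 0 of the 5 members were called for MI at P7, where 5.61% of all names were. None had an unadjusted p under 0.05, and DESeq2 and limma-voom also called 0. miR-208a-5p passed in 3 alternatives: -0.97 (edgeR adjusted p = 0.0264) without the code 1103 libraries, -0.98 (0.0254) without the code 1078 libraries, and an adjusted p of 0.0458 with only the P7 groups in the fit. Over its alternatives the adjusted p ran from 0.0254 to 0.996.

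The difference between the MI effects at P7 and P1 was tested as its own term. At 3 days edgeR called 0 members and 0.0% of all names, with 0 members and 71 of all 446 names at an unadjusted p under 0.05. DESeq2 called 0 members and 6 names, and limma-voom called 0 and 0. Without the code 1078 libraries 4 members were called, among them miR-208a-3p at -4.58 and miR-208b-3p at -3.23, and without the code 1103 libraries 0 were. Over all tested names the median of this difference was 0.42, and the member values were -0.29 for miR-208a-3p, 0.73 for miR-208a-5p, -1.12 for miR-208b-3p, -1.42 for miR-208b-5p and -0.81 for miR-499-5p.

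Hearts operated at P7 were then compared with those operated at P1, which at 3 days sets hearts of 10 days against hearts of 4 days. In the infarcted hearts the Myh7-hosted miRNA and miR-499-5p were called lower in the older hearts, and the 5p arm of miR-208a was called higher. The levels compared do not include the split sham group. The SE and p do depend on it, because the spread is estimated over all 4 groups. miR-208b-3p was at 2023 to 6147 CPM in MI P1 (mean 3384 ± 1868, SD, n = 4) and at 307 to 701 CPM in MI P7 (450.0 ± 178). The groups did not overlap, and the log2 difference was -2.91 ± 0.73 (edgeR adjusted p = 0.00506). miR-208b-3p stayed past the threshold in every alternative run, with adjusted p up to 0.0314. miR-499-5p was at 1094 to 2654 CPM against 252 to 597 CPM, also without overlap, with -1.82 ± 0.72 (adjusted p = 0.0388). Its call was lost in 9 of the 16 fits that left out 1 library, with an adjusted p of up to 0.123.

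The arms of miR-208a parted in CPM in this comparison. miR-208a-5p was at 947 ± 366 CPM in MI P1 and 2848 ± 390 CPM in MI P7, with 1.59 ± 0.46 (edgeR adjusted p = 0.0101). It lost its call with no filter on low counts (0.94, adjusted p = 0.135). In reads before scaling it was lower in MI P7, at 2951 to 3408 against 4122 to 7185 in MI P1. The MI P7 libraries held 1.29 to 1.95 M counts and the MI P1 libraries 5.61 to 13.0 M. miR-208a-3p had a mean of 933 ± 70.2 CPM in MI P1 and 485 ± 186 CPM in MI P7. Its libraries did not overlap, at 851 to 1013 against 241 to 655 CPM. In the fit of all 4 groups it had -0.94 ± 0.93 (adjusted p = 0.37), and with only the MI groups in the fit it passed, with -0.66 (adjusted p = 0.0395).

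miR-208b-5p was rare. It had 31, 149, 26 and 32 reads in the MI P1 libraries and 0, 2, 2 and 0 reads in the MI P7 libraries, where 3 reads, the limit that a count of 0 allows, would be 2.72 to 3.49 CPM. Over the pooled reads it was at 10.8 CPM in MI P1 and 0.958 CPM in MI P7, a ratio of 11.3 with an exact 95% interval of 4.34 to 41.7 that covers counting error only. The fitted log2 difference was -3.13 ± 1.00 (edgeR adjusted p = 0.0164), and a filter of 10 CPM removed it from the test. With title code as a random effect it had -2.84 (limma-voom adjusted p = 0.0775) and miR-499-5p had -1.77 (adjusted p = 0.102), so neither was called. In all, 4 of the 5 members were called, 1 higher and 3 lower, where 62.6% of all names were called. With title code as a random effect 2 members, miR-208b-3p and miR-208a-5p, and 29.8% of all names were called.

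Several markers of other cell types were lower in MI P7 than in MI P1, without overlap between the groups. The 2 endothelial miRNAs summed to 83561 to 103944 CPM in MI P1 and 9771 to 21411 CPM in MI P7. The 4 fibroblast miRNAs named further on summed to 17365 to 21881 CPM against 6068 to 9799 CPM, and the 2 smooth muscle miRNAs, miR-143-3p and miR-145a-5p, to 19138 to 24759 CPM against 5156 to 7240 CPM. Erythroid sums were also lower, at 154 to 352 CPM in MI P1 and 56.5 to 151 CPM in MI P7. Leukocyte sums overlapped, at 2387 to 4435 CPM against 2619 to 3525 CPM, as did the liver and skeletal muscle markers. Striated muscle sums went the other way without overlap, at 84942 to 149614 CPM in MI P1 and 152510 to 169854 CPM in MI P7. The part of these markers in the members' differences was not tested.

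Base composition moved with this comparison too. Over the 389 names with a sequence, the log2 difference of MI P7 against MI P1 had a Pearson r of 0.64 with GC, as a description. Its median was -1.82 over the 58 names under 40% GC, which include miR-208a-3p (-0.94), miR-208b-3p (-2.91) and miR-499-5p (-1.82). It was 0.95 over the 131 names from 50% to under 60% GC, which include miR-208a-5p (1.59). At 21 days the same r was -0.09 over 507 names. MI P1 replicate 1 held 1641 CPM of the liver miRNA miR-122-5p, against at most 208 CPM elsewhere at 3 days. Without that library the calls of miR-208b-3p and miR-208a-5p held.

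In sham hearts at 3 days 0 of the 5 members were called for P7 against P1, where 22.0% of all names were. miR-208b-3p had -1.79 ± 0.70 (edgeR adjusted p = 0.075), the only member with an unadjusted p under 0.05. DESeq2 called 2 members and limma-voom called 0. The sham P1 libraries of each code gave other answers. Against code 1078 alone all 5 members were called: the log2 difference was -2.57 for miR-208b-3p, -2.13 for miR-208b-5p, -1.81 for miR-499-5p, -1.58 for miR-208a-3p and 2.13 for miR-208a-5p. Against code 1103 alone 2 were called, both higher at P7: miR-208a-3p by 3.79 and miR-499-5p by 1.74. miR-208b-3p then had 0.45 (adjusted p = 0.596).

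**Figure D3:**
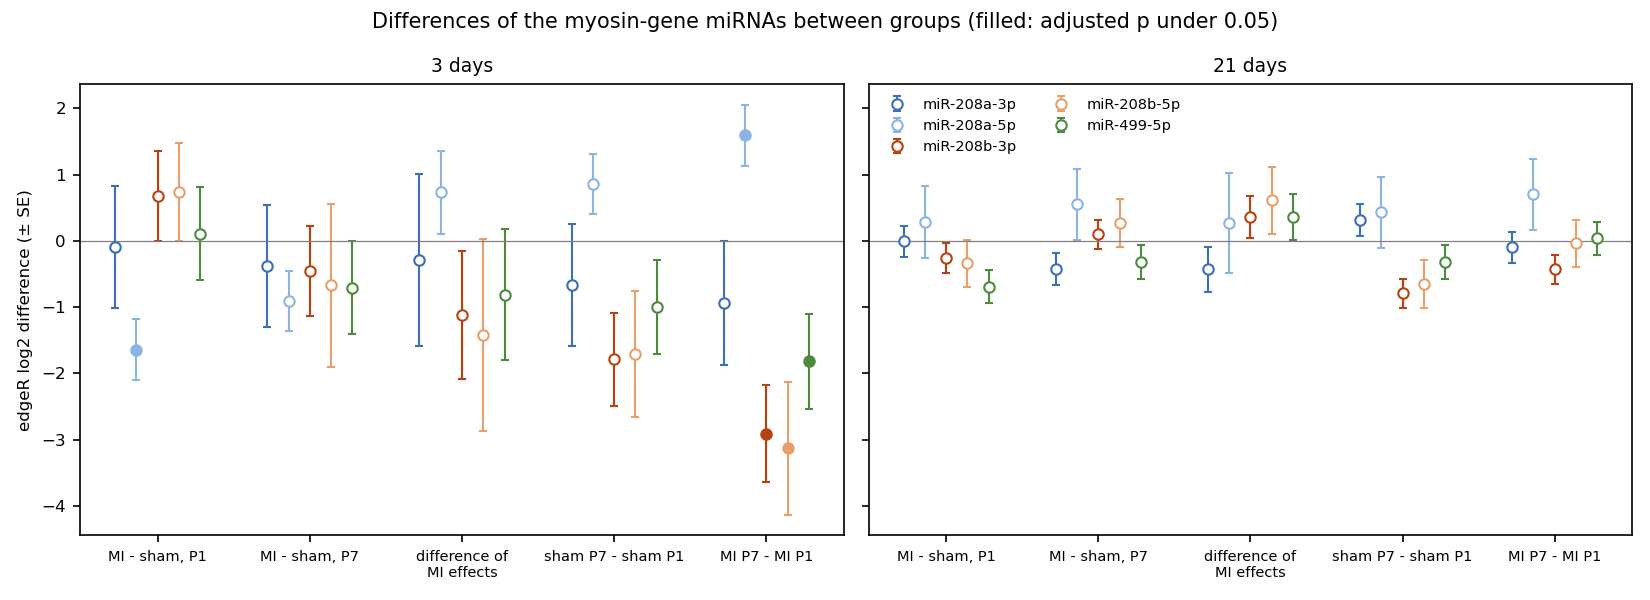
edgeR log2 differences of the 5 members (vertical axis) for the 5 comparisons (horizontal axis) at 3 days (left) and 21 days (right); bars are SE and filled points have an adjusted p under 0.05. Calls appear only at 3 days, 1 for MI against sham at P1 and 4 for MI P7 against MI P1, where miR-208a-5p is at 1.59 and miR-208b-3p at -2.91.

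Ratios between members of the same library do not depend on scaling, and were taken because miR-208b-3p and miR-208a-3p stand for the Myh7 and Myh6 introns and share seed and length. Capture differs between miRNAs, so a ratio is compared between groups and is not read as a ratio of molecules. At 3 days the ratio of miR-208b-3p to miR-208a-3p reads was above 1 in all 8 libraries of hearts operated at P1. It was 1.43, 3.44, 6.67 and 13.0 in sham P1, where the last values rest on 45 and 85 reads of miR-208a-3p and have exact 95% intervals of 4.86 to 9.34 and 10.4 to 16.4. It was 2.38, 6.07, 2.97 and 2.78 in MI P1. In hearts operated at P7 it lay near 1, at 0.805 to 1.71 in sham and 0.687 to 1.27 in MI. The values of MI P1 and MI P7 did not overlap, and those of the sham groups overlapped through sham P1 replicate 1.

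On the log2 scale, with 0.5 added to each count, this ratio differed between P7 and P1 by -1.81 in MI hearts (exact two-sided permutation p = 0.0286, adjusted p = 0.133 over 28 ratio tests) and by -2.07 in sham hearts (exact permutation p = 0.0571, adjusted p = 0.229). The first p is the smallest that 4 libraries against 4 can give. In sham hearts the direction was the same against the code 1103 libraries alone (-3.10) and the code 1078 libraries alone (-1.05), unlike the levels. The size still moved with the split: the log2 ratio was 0.52 and 1.78 in the code 1078 libraries and 2.72 and 3.69 in those of code 1103. MI against sham gave -0.45 at P1 (exact permutation p = 0.514) and -0.19 at P7 (exact permutation p = 0.571), with overlapping groups in both.

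The ratio of miR-499-5p to miR-208a-3p followed a like order. Its geometric means were 2.82 in sham P1, 1.65 in MI P1, 1.37 in sham P7 and 0.975 in MI P7. MI P7 and MI P1 differed by -0.76 on the log2 scale without overlap (exact permutation p = 0.0286, adjusted p = 0.133), and the sham groups by -1.04 with overlap (exact permutation p = 0.171). MI against sham gave -0.77 at P1 and -0.49 at P7, neither past the threshold. The ratio of the arms, miR-208a-3p to miR-208a-5p, ran from 0.619 to 1.70 in MI P1 and from 0.071 to 0.237 in MI P7, a log2 difference of -2.69 (exact permutation p = 0.0286, adjusted p = 0.133). It was 1.88 and 0.895 in the sham P1 libraries of code 1078 and 0.0088 and 0.0111 in those of code 1103, a wider spread within 1 group than between the MI groups. Set against miR-133a-3p, a striated muscle miRNA outside the myosin genes, the log2 ratio of miR-208b-3p was lower in MI P7 than in MI P1, with a difference of -4.29 (exact permutation p = 0.0286, adjusted p = 0.133). This ratio also moves with the rise of miR-133a-3p, which had a log2 difference of 1.43 (edgeR adjusted p = 0.0113) between the same groups. Within sham P1 the log2 ratio was -3.77 and -4.10 with code 1078 and -9.60 and -8.72 with code 1103. The ratios of miR-208a-3p and miR-499-5p to miR-133a-3p were also lower in MI P7 without overlap, by -2.48 and -3.24 (exact permutation p = 0.0286 each). Of the 28 ratio tests at 3 days 0 passed after adjustment, and in 6 the groups did not overlap.

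**Figure D4:**
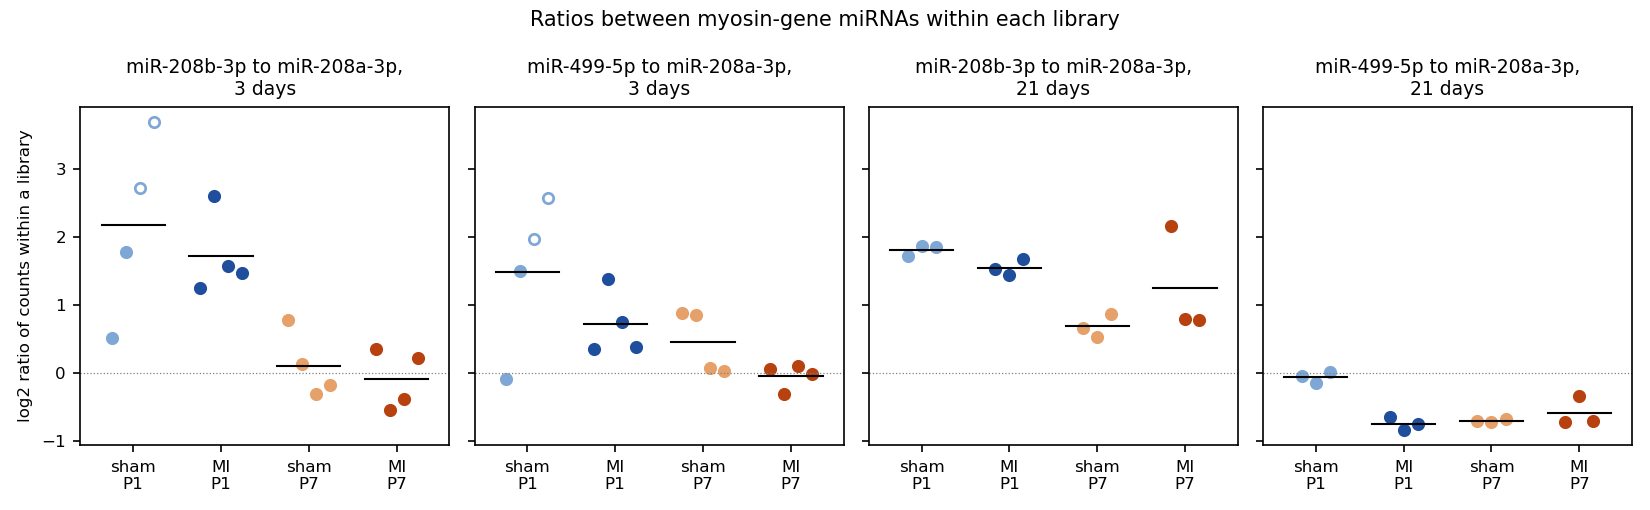
log2 ratio of counts within each library (vertical axis, 0.5 added to each count) by group (horizontal axis) for miR-208b-3p to miR-208a-3p and miR-499-5p to miR-208a-3p, at 3 days (left pair) and 21 days (right pair). Points are libraries, open points code 1103, and bars group means; the means of the first ratio at P1 and P7 are 2.18 and 0.10 (sham) and 1.72 and -0.09 (MI) at 3 days, and 1.82 and 0.69 (sham) and 1.55 and 1.25 (MI) at 21 days. The 3-day sham groups and the 21-day MI groups overlap, and no ratio test passed after adjustment.

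At 21 days miR-208a-3p, miR-208b-3p and miR-499-5p each had at least 13289 reads in every library. Of the reads of the Mir208a hairpin, miR-208a-3p made up 85.6 to 96.0% in every library. miR-499-5p made up 96.4 to 98.1% of its own, and miR-208b-5p had 15 to 41 reads per library. In bulk tissue fewer muscle cells and less miRNA per muscle cell cannot be told apart.

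For MI against sham at P1, 21 days after the operation, the member with the largest log2 difference was miR-499-5p. It was at 2078, 1568 and 1766.5 CPM in sham P1 and at 1332, 984 and 1045 CPM in MI P1. The MI libraries all lay below the sham libraries, and the log2 difference was -0.69 ± 0.25, which did not pass over all names (unadjusted p = 0.015, edgeR adjusted p = 0.648). miR-499-3p, the other arm of the hairpin, was at 36.5 ± 6.19 against 27.9 ± 1.99 CPM (SD, n = 3 each), with -0.39 ± 0.27. miR-208a-3p was level, at 1731 to 2132 CPM against 1742 to 2090 CPM (-0.01 ± 0.24). miR-208b-3p was at 7024, 6326 and 6325 CPM against 6059, 4732 and 5593 CPM (-0.26 ± 0.22, adjusted p = 0.817). In edgeR 0 of the 5 members were called and 1, miR-499-5p, had an unadjusted p under 0.05, where 0.502% of all 598 tested names were called; DESeq2 and limma-voom called 0 members.

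For MI against sham at P7 the group after MI was the most spread. miR-208a-3p was at 2490, 2317 and 2207 CPM in sham P7 and at 1141, 1484 and 2567 CPM in MI P7. Its log2 difference was -0.43 ± 0.24 (edgeR adjusted p = 0.204), and -0.78 (adjusted p = 0.0084) without MI P7 replicate 3, where the difference of the MI effects was also called, at -0.79 (adjusted p = 0.0318). miR-208a-5p stood at 430 CPM in that same replicate and at 64.6 and 102 CPM in the others, against 107 to 172 CPM in sham. miR-208b-3p was at 3964, 3380 and 4026 CPM in sham P7 and at 5152, 2582 and 4423 CPM in MI P7 (0.10 ± 0.22), so its highest and lowest values were both after MI. miR-499-5p was at 1531, 1410 and 1382 CPM against 691, 1180.5 and 1581 CPM (-0.32 ± 0.25).

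Of the members, 0 were called for MI at P7, where 22.1% of all names were, and 0 for the difference of the MI effects, where 9.87% were. None of the 5 had an unadjusted p under 0.05 in either, and DESeq2 and limma-voom called 0. miR-133a-3p, which keeps muscle growth in check, fell in the same comparison, from 133590 ± 12292 to 66440 ± 18770 CPM, with -1.01 ± 0.21 (edgeR adjusted p = 0.00844). Set against it within each library, miR-499-5p was higher after MI at P7, with a log2 difference of 0.64 and no overlap, and lower after MI at P1, with -0.78 and no overlap. Both have an exact permutation p of 0.10, the smallest that 3 libraries against 3 can give, and the first ratio moves with the fall of miR-133a-3p. The ratios of miR-208b-3p and miR-208a-3p to miR-133a-3p had the same signs. After MI at P7 they differed by 1.08 and 0.53, with overlap, and after MI at P1 by -0.36 and -0.09, without overlap. The 4 fibroblast miRNAs on the marker list (miR-199a-3p, miR-199a-5p, miR-214-3p and miR-21a-5p) summed to 19411 to 45208 CPM in MI P7 and 10385 to 11419 CPM in sham P7, and their part in the spread of the members was not tested. Among the P7 libraries at 21 days, the highest miR-208b-3p value and the highest fibroblast sum were in the same library, MI P7 replicate 1. The lowest miR-208b-3p value, 2582 CPM, was in MI P7 replicate 2, whose fibroblast sum of 19411 CPM lay above every sham P7 library.

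**Figure D5:**
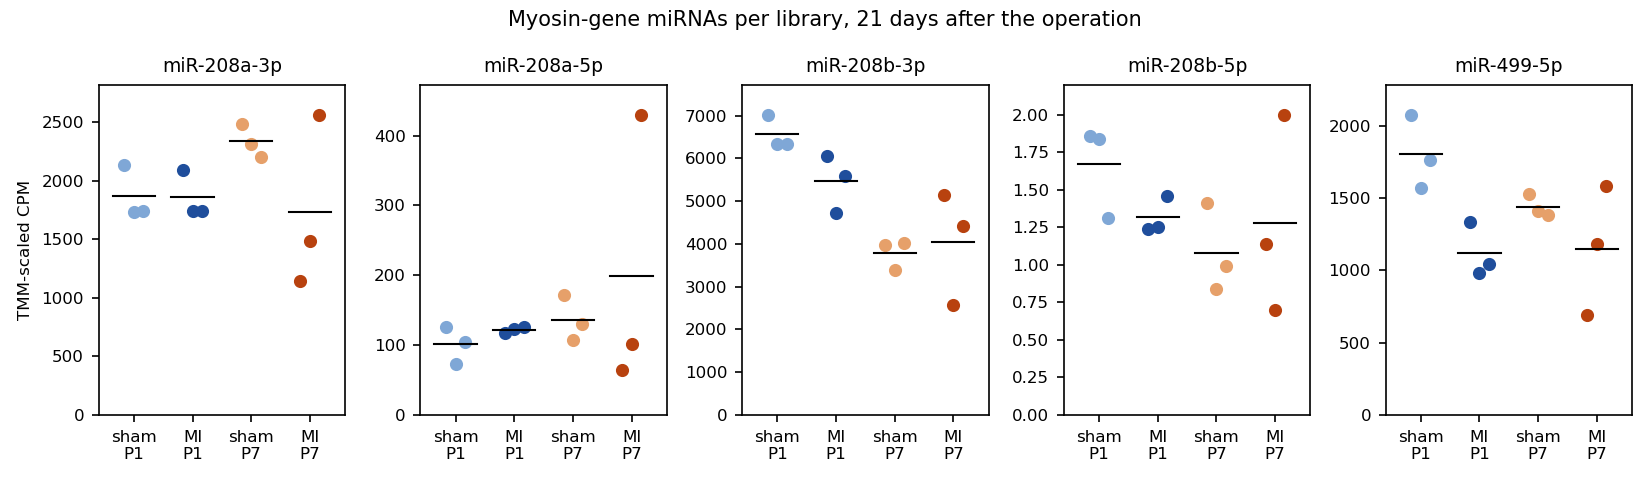
TMM-scaled CPM of the 5 members in each of the 12 libraries at 21 days (vertical axes, linear from 0) by group (horizontal axis). Points are libraries and bars group means; miR-208b-3p lies at 6325 to 7024 CPM in sham P1 and 3380 to 4026 CPM in sham P7, and miR-208a-5p reaches 430 CPM in MI P7 replicate 3.

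Between the sham groups at 21 days, of 22 and 28 days of age, miR-208b-3p was the member that differed most. It was at 6325 to 7024 CPM in sham P1 and 3380 to 4026 CPM in sham P7, with no overlap. The log2 difference was -0.79 ± 0.22, with an unadjusted p of 0.0031 and an edgeR adjusted p of 0.117. The adjusted p ran from 0.0201 to 0.394 over the alternatives, and passed in DESeq2 (0.049), with no filter (0.0201) and with only the sham groups in the fit (0.0211). miR-208a-3p had 0.32 ± 0.24 and miR-499-5p -0.32 ± 0.25. In edgeR 0 of the 5 members were called, as were 0.0% of all names, where 72 names had an unadjusted p under 0.05; DESeq2 called 1 member and 14 names, and limma-voom 0 and 0. In MI hearts the change with operation day was -0.43 ± 0.22 for miR-208b-3p and 0.04 ± 0.25 for miR-499-5p, and 0 of the 5 members were called by edgeR, DESeq2 or limma-voom, with 0 at an unadjusted p under 0.05, where 13.5% of all names were called.

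The ratio of miR-208b-3p to miR-208a-3p at 21 days was 3.29, 3.65 and 3.63 in sham P1 and 1.59, 1.46 and 1.82 in sham P7. These did not overlap, with a log2 difference of -1.12 (exact permutation p = 0.10, adjusted p = 0.215). It was 2.90, 2.71 and 3.21 in MI P1, below each sham P1 library (-0.26, exact permutation p = 0.10, adjusted p = 0.215). In MI P7 it was 4.51, 1.74 and 1.72, so 1 library stood above every other library at 21 days while the others lay within the range of sham P7 (0.56 against sham, exact permutation p = 0.30). Without MI P7 replicate 1 that difference was 0.10. MI P7 and MI P1 differed by -0.30 (exact permutation p = 0.40), and by -0.76 without that library.

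The ratio of miR-499-5p to miR-208a-3p was 0.906 to 1.01 in sham P1, and lower in all other libraries. It was 0.564 to 0.637 in MI P1 (-0.68 on the log2 scale), 0.608 to 0.626 in sham P7 (-0.64 against sham P1) and 0.605 to 0.796 in MI P7. The first and the second difference had an exact permutation p of 0.10 and an adjusted p of 0.215. MI P7 overlapped with sham P7 (0.11, exact permutation p = 0.80) and with MI P1 (0.15, exact permutation p = 0.40). All 3 sham P1 libraries were read on lane 3 of the sequencer, as named in the files, and the other groups on lanes 3 and 5. The lane 3 libraries of the other groups had 0.637 (MI P1), 0.608 and 0.626 (sham P7), and 0.605 and 0.616 (MI P7). The part of lane in the ratios was not tested. Of the 28 ratio tests at 21 days 0 passed after adjustment, which 3 libraries against 3 could not reach. In 13 of the 28 the groups did not overlap.

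Over the 5 striated muscle miRNAs outside the myosin genes (miR-1a-3p, miR-133a-3p, miR-133a-5p, miR-133b-3p and miR-206-3p), the counts called in each comparison stood beside those of the members as follows. At 3 days 2 of 5 passed for MI at P1, 1 for MI at P7, 0 for the difference of the effects, 2 for sham P7 against sham P1 and 3 for MI P7 against MI P1. At 21 days 4 of these were tested: 2 passed for MI at P7, both lower, 1 for the difference of the effects, 2 for MI P7 against MI P1, and 0 for the remaining comparisons. miR-1a-3p, the partner of miR-133a in the same transcripts, followed the 3-day split like miR-208a-3p, at 96165 and 88270 CPM in the code 1078 libraries and 2380.5 and 2795 CPM in the code 1103 libraries. miR-133a-3p went the other way, at 55672 and 61268 CPM against 224359 and 250419 CPM.

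The miRNAs whose levels ran most like those of the members were ranked by Pearson r of log2(CPM + 1), as a description over libraries that share group and, at 3 days, the split. At 3 days, over 16 libraries and 348 names, miR-208a-3p ran most like miR-101a-3p (r = 0.973), miR-190a-5p (0.972) and miR-301a-3p (0.963). miR-208b-3p ran most like miR-130a-3p (r = 0.971), miR-26b-5p (0.969) and miR-30c-5p (0.965). miR-499-5p ran most like miR-30e-5p (r = 0.983), miR-335-5p (0.967) and miR-126a-3p (0.963). None of these 9 is another muscle miRNA of the list.

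At 21 days, over 12 libraries and 283 names, the order was another. miR-208a-3p ran most like miR-335-3p (r = 0.922), miR-139-5p (0.909) and miR-29c-5p (0.906). miR-208b-3p ran most like miR-322-3p (r = 0.864), miR-296-5p (0.843) and miR-450a-5p (0.752). miR-499-5p ran most like miR-339-5p (r = 0.754), miR-378a-5p (0.747) and its own opposite arm miR-499-3p (0.689). With the group means taken out, miR-208a-3p had an r of 0.931 with miR-208a-5p and 0.930 with miR-499-5p, and 0.087 with miR-208b-3p.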

How the data were processed

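The members and lists were chosen with earlier results of these data known. Per the labels' protocols, TRIzol RNA (100 ng) went into Qiagen QIAseq libraries (3 days, NextSeq500) or Illumina TruSeq libraries (21 days, HiSeq2000). The authors deposited whole-number counts per hairpin and mature name. Bowtie2 2.2.2, edgeR and GRCm38 are listed, per the submitters' processing notes, without their roles. How reads were trimmed and counted, and whether molecular identifiers were used, is not given in the sources used here. Per mature name, the highest count over hairpins was kept, and reads of near-identical names may be shared between them.

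Within each follow-up, edgeR 4.0.16 (R 4.3.3; TMM, filterByExpr, robust quasi-likelihood F test) was fitted to all 4 groups. It tested 446 names at 3 days and 598 at 21 days, with Benjamini-Hochberg adjustment over all tested and a threshold of 0.05. SE is the log2 difference divided by the square root of F. Ratios were tested by exact two-sided permutation, adjusted over 28 tests per follow-up. DESeq2 1.42.0 and limma 3.58.1 were alternatives. Fits were tested on simulated data. Named were the 5 members, miR-499-3p, the striated muscle list, markers and the 3 most alike names per member.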

Additional observations from a re-analysis of the deposited data

Results flagged for a closer look

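Among the 5 members and 4 ratios between members in the 4 groups of the 3-day follow-up, 36 sets of 4 values were examined for a library far from the others, and chance alone marks about 1 in 20. The level of miR-208b-3p in MI P1 replicate 2, 6147 CPM, stood apart from the other 3 libraries of its group: its gap to the next library was 0.838 of the group's range, above Dixon's 95% critical value for 4 samples. That library also had the highest miR-499-5p level of the group, 2654 CPM, and without it miR-208b-3p stayed called for MI P7 against MI P1 while miR-499-5p did not (-1.64, adjusted p = 0.0853). Its deposited counts were the highest of the 3-day libraries, at 13.0 M.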

How the results depend on the processing

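No paired analysis was possible because the replicate numbers were given in accession order and pair no samples. Total count scaling moved the median of all names by over 0.1 (log2), to 0.33, 0.47, 0.60, -0.82 and -0.26 in the 5 comparisons at 3 days, in the order of the report, and to -0.20, 0.38, 0.57, -0.23 and 0.33 at 21 days.

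Counts of called members changed as follows, and the cause was not tested. At 3 days, MI at P1 gave 0 with total scaling, no filter, limma-voom, only the groups compared, code as a random effect or without code 1103, and 4 without code 1078. MI at P7 gave 1 with only the groups compared or without either code. The difference of effects gave 4 without code 1078. Sham P7 against P1 gave 1 with total scaling, 2 with DESeq2 or without code 1078, and 5 without code 1103. MI P7 against P1 gave 2 with the 10 CPM filter or the random effect. At 21 days, sham P7 against P1 gave 1 with no filter, DESeq2 or only the groups compared, and MI P7 against P1 gave 1 with no filter. Leaving out 1 library gave 0 to 1 for MI at P1, 0 to 2 for sham and 2 to 4 for MI P7 against P1 at 3 days, and 0 to 1 for MI at P7 and the difference of effects at 21 days.

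Signs turned for these log2 differences, and the cause was not tested. At 3 days for MI at P1, miR-208a-3p had 0.21 with total scaling, 1.73 with limma-voom, 0.002 with only the groups compared, 4.18 without code 1078 and 1.64 with the random effect. Without code 1103, miR-208b-3p had -0.23, miR-499-5p -0.83, and the ratios of these to miR-208a-3p 0.57 and 0.01. For MI at P7, total scaling gave 0.12 for miR-208a-3p and 0.02 for miR-208b-3p. For the difference of effects without code 1103, miR-208a-3p had 0.76, miR-208a-5p -0.38 and miR-499-5p 0.11. For sham P7 against P1, miR-208a-3p had 0.84 with limma-voom, 0.82 with the random effect and 3.79 without code 1078, where miR-208b-3p had 0.45 and miR-499-5p 1.74. At 21 days, miR-208a-3p for MI at P1 had 0.004 with only the groups compared and 0.08 with lane as a covariate. The difference of effects had 0.08 for miR-208a-3p with total scaling and -0.22 for miR-208a-5p with limma-voom. MI P7 against P1 with total scaling had 0.18 for miR-208a-3p and 0.26 for miR-208b-5p, which had 0.01 with only the groups compared, and limma-voom gave -0.03 for miR-499-5p.

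Leaving out 1 library turned the sign in these ranges. At 3 days miR-208a-3p ran from -0.65 to 1.26 for MI at P1, -0.66 to 0.26 for MI at P7, -1.66 to 0.40 for the difference and -1.37 to 0.86 for sham P7 against P1. miR-499-5p for MI at P1 ran from -0.40 to 0.60. For MI at P7, miR-208b-3p ran from -0.74 to 0.04 and miR-208b-5p from -1.22 to 0.34. The ratio of miR-208b-3p to miR-208a-3p ran from -1.01 to 0.05 for MI at P1 and -0.34 to 0.03 for MI at P7. At 21 days miR-208a-3p ran from -0.10 to 0.12 for MI at P1 and -0.46 to 0.09 for MI P7 against P1. For MI at P7, miR-208a-5p ran from -0.66 to 0.92, miR-208b-3p from -0.14 to 0.35, miR-208b-5p from -0.14 to 0.58 and the ratio of miR-499-5p to miR-208a-3p from -0.01 to 0.18. miR-208a-5p ran from -0.95 to 0.65 for the difference. For MI P7 against P1, miR-208a-5p ran from -0.51 to 1.07, miR-208b-5p from -0.46 to 0.25 and miR-499-5p from -0.22 to 0.27.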
